A study of Mus musculus with 6 samples.

Results

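The 32 genes described here belong to the amino acid and one-carbon programme that is classically placed under the transcription factor ATF4. They were chosen by symbol, with earlier results of these data known. All 32 were found among the 24391 gene rows of the count table and among the 23284 rows of the FPKM table. FPKM is a level scaled for transcript length and for depth. By role, 9 serve serine synthesis and the folate cycle, 5 serve proline, asparagine and transamination, 6 are transporters, 6 are tRNA synthetases and 6 are stress regulators. RNA was sequenced from tumour-associated macrophages (TAMs), the macrophages of a tumour, sorted from colorectal tumours of BALB/C mice. Cells sorted as F4/80low (CD11b-high) gave 2 libraries from CCL5-/- mice, which lack the chemokine CCL5, and 2 from wild-type (WT) mice. Cells sorted as F4/80hi (CD11b-low) gave 1 library labelled CCL5-/- and 1 labelled WT. The labels give no age, no number of mice and no word on pooling, so p-values reflect only how far these libraries spread, and that spread may be technical.

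When a cell runs short of amino acids, or when unfolded proteins collect in its endoplasmic reticulum, kinases phosphorylate the translation factor eIF2. Most translation then slows while the ATF4 messenger is translated more, and ATF4 protein, often paired with C/EBP proteins, switches on genes that make, import and charge amino acids. Because ATF4 is controlled largely at translation, its messenger level and its activity need not move together. Serine made by the pathway of PHGDH, PSAT1 and PSPH feeds one-carbon units into folate metabolism, which supplies purine and thymidylate synthesis, and macrophages use serine, glycine and glutamine pathways when activated.

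The DNA element through which ATF4 and C/EBP proteins act on many of these genes is the C/EBP-ATF response element. The motif TGATGNAAN was searched on both strands of the RefSeq promoter windows (GRCm38.p6), which run from 250 bases before to 50 bases after each annotated start. By symbol 26 members had a window, and 8 of these (30.8%) held the motif, against 4.5% of the 27025 gene symbols in the same table. The list was made of genes classically placed under ATF4, so this contrast adds no support of its own. A match describes these letters and does not show that the factor binds there. Matches are shown for Asns, Chac1, Gars, Got1, Pycr1, Slc1a4 and Trib3 to let the elements be compared, each 5′ to 3′ on the strand of its gene, with the match in capitals and 10 bases on either side. A match in which CATCA stands last in capitals lies on the opposite strand.
Asns, chr6:7693214-7693242 (-): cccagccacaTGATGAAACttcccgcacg
Chac1, chr2:119351038-119351066 (+): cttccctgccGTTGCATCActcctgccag
Gars, chr6:55037960-55037988 (+): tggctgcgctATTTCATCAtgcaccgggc
Got1, chr19:43524690-43524718 (-): cattgcattgGTTGCATCAtacaagcctc
Pycr1, chr11:120643833-120643861 (-): gccctgtgtaTGATGCAATgcacaaggct
Slc1a4, chr11:20332700-20332728 (-): tgcctcctgcGTTGCATCAtctccagcct
Trib3, chr2:152344029-152344057 (-): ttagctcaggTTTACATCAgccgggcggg
The whole 250 bases before the start are shown for Chac1, the member that differed most between the replicate numbers (below), and for Pycr1, the member with the highest fitted genotype difference.
Chac1, chr2:119350992-119351241 (+): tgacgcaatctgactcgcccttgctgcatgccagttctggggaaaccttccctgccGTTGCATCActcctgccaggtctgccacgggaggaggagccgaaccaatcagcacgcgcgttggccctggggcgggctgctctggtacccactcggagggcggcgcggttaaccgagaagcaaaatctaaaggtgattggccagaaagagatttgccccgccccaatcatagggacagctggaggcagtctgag
Pycr1, chr11:120643749-120643998 (-): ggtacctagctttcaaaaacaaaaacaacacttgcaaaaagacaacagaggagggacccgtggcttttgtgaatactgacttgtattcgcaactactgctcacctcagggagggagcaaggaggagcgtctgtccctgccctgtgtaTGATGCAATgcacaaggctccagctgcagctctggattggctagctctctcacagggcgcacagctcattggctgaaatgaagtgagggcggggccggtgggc
The 8 members with a match had a median log2 difference between CCL5-/- and WT of 0.50, and the 18 matched members without one had 0.33. Between the replicate numbers, 2 of the 8 and 7 of the 18 passed the edgeR test described below. The 2 sets hold few genes, and no test was made between them.

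Several facts of the libraries bear on every value. Total counts ran from 9280635 to 22411342 in the 4 F4/80low libraries. Rn45s, a precursor of ribosomal RNA, made up 50.03% of the reads of CCL5-/- replicate 1 and 58.44% of WT replicate 1, against 1.38% and 0.844% of CCL5-/- and WT replicate 2, which left 3857011 to 22222208 counts for other genes. Reads of the targeted gene Ccl5 numbered 35 and 82 in CCL5-/- replicates 1 and 2, against 255 and 3976 in WT replicates 1 and 2. In the F4/80hi libraries Ccl5 goes against the labels, at 145 FPKM under the CCL5-/- label and 15.7 FPKM under the WT label, and the sample titles also name the opposite genotypes. The ratio of those 2 libraries matched how reads split between WT and CCL5-/- replicate 1 of F4/80low, with a median chi-square of 0.335 over 6677 genes of 20 to 400 reads, where 0.455 is the median of a chi-square with 1 degree of freedom. For the 11 remaining ordered pairs of F4/80low libraries the median was 3.57 to 8.90. The difference between the F4/80hi pair and the replicate 1 pair was thus smaller than sampling noise, and the F4/80hi pair is counted as the same 2 libraries under crossed labels, so each genotype has 2 libraries in all, and the gate of replicate 1 is not settled. All 12 macrophage markers were detected in all 4 F4/80low libraries.

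Per unit of transcript length, the regulators Atf4 and Atf5 and the first enzyme of serine synthesis, Phgdh, had the highest levels of the 32. Only FPKM values allow such a comparison between genes. They were given only for the pair with crossed labels, counted above as the replicate 1 libraries. The order of levels thus describes that pair and was not tested in replicate 2. Atf4 was at 177 FPKM under the CCL5-/- label and 201 FPKM under the WT label. Phgdh followed at 140 and 154 FPKM and Atf5 at 120 and 138 FPKM, in the same order of labels. Below them lay Slc3a2, a transporter heavy chain, at 81.0 and 84.9 FPKM and Asns, asparagine synthetase, at 75.3 and 90.2 FPKM, whose order differed between the labels. In this pair the regulators Chac1 (5.13 and 5.07 FPKM) and Sesn2 (10.6 and 10.5 FPKM) were among the low members. Pycr1 was the lowest, at 0.646 and 0.644 FPKM. By counts, Chac1 was 6.43-fold higher in replicate 2 than in replicate 1 (below), while Sesn2 was nearly level (log2 difference -0.05). The low place of Chac1 therefore need not hold in replicate 2. With 1 library per label the neighbours in this order cannot be compared against a spread. The deposited bounds also overlap. Under the CCL5-/- label they run from 55.4 to 299 FPKM for Atf4 and from 28.8 to 122 FPKM for Asns. The locus given with the Atf5 FPKM ends at 44849079 of chromosome 7, past the gene body, which ends at 44816658 (GENCODE M21, GRCm38).

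The first comparison asked whether loss of CCL5 altered these genes in F4/80low TAMs. Of the 32 members, 31 had a positive log2 difference between CCL5-/- and WT, against 48.1% of the 12710 genes tested, and the members' median was 0.37 against -0.01 for all tested genes. The members were chosen with earlier results of these data known, so this contrast is not a test of a list fixed beforehand. None of the 32 differences passed. With edgeR, 0 of the 32 members had an adjusted p under 0.05 (0% of all genes), and 0 had an unadjusted p under 0.05 (0.323% of all genes). Ccl5 itself, with a log2 difference of -4.64 (SE 0.69) and an unadjusted p of 0.000762, also had an edgeR adjusted p of 1 in this fit, so a count of 0 here does not show that a gene was unaltered. DESeq2 and limma-voom also called 0 members. In the authors' deposited table, 31 of the 32 log2 changes were likewise above 0, running from -0.0085 to 0.37, and 0 had an adjusted p under 0.05.

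The size of the shift changed with the libraries kept. Without CCL5-/- replicate 2 the median of the 32 log2 differences was 0.059 and 20 members were above 0, while without CCL5-/- replicate 1 it was 0.54 with 32 above 0. Without CCL5-/- replicate 2 the median by role was 0.01 for serine and folate genes, 0.10 for proline, asparagine and transamination, 0.18 for transporters, 0.04 for synthetases and -0.66 for stress regulators. Each such fit holds unequal numbers of replicates 1 and 2 per genotype. The difference between the replicate numbers thus enters it, and it cannot tell the part of 1 library from that difference. Taken by same-numbered pairs, 26 members were higher in CCL5-/- replicate 1 than in WT replicate 1 (50.6% of all genes). In replicate 2 the count was 31 (47.6% of all genes). Higher in both pairs were 26 (24.8% of all genes), and lower in both was Psat1 alone. Over the members the pair 1 median was 0.13 and the pair 2 median 0.54, against 0.0060 and -0.02 for all tested genes. Non-overlapping groups with CCL5-/- above WT were seen for 11 members (8.36% of all genes), and 0 members had CCL5-/- below WT (8.24% of all genes).

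Marker lists also differed between the genotypes, and 0 markers passed in edgeR. The 12 proliferation markers summed to 926 and 1121 CPM (counts scaled for depth) in CCL5-/- replicates 1 and 2, against 724 and 992 CPM in WT replicates 1 and 2, and 7 of 12 were higher in both pairs. The 11 neutrophil markers summed to 776 and 347 CPM in CCL5-/-, against 3785 and 600 CPM in WT. Of these, 10 of 11 were lower in both pairs, with none at 0 in any library. Among all 12710 tested genes, 3155 were higher in both pairs and 3370 lower. Hepatocyte markers summed to 128 CPM in CCL5-/- replicate 1 with 0 of 8 undetected, and to 0.331 CPM in CCL5-/- replicate 2, against 1.55 and 0.789 CPM in WT, with 4 to 6 of 8 undetected in these 3. Other lists turned between the pairs. Macrophage markers summed to 5279 and 4787 CPM in CCL5-/- replicates 1 and 2, against 3906 and 7619 CPM in WT replicates 1 and 2. T and NK cell markers summed to 168 and 164 CPM in CCL5-/-, against 99.3 and 389 CPM in WT, and B and plasma cell markers to 7.90 and 17.8 CPM, against 5.84 and 90.3 CPM. In the replicate 2 pair, where the members differed most, all 3 of these sums were lower in CCL5-/-. The part of these markers in the members' values was not tested. In sorted bulk RNA, fewer cells of a type and less RNA per cell cannot be told apart.

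**Figure D1:**
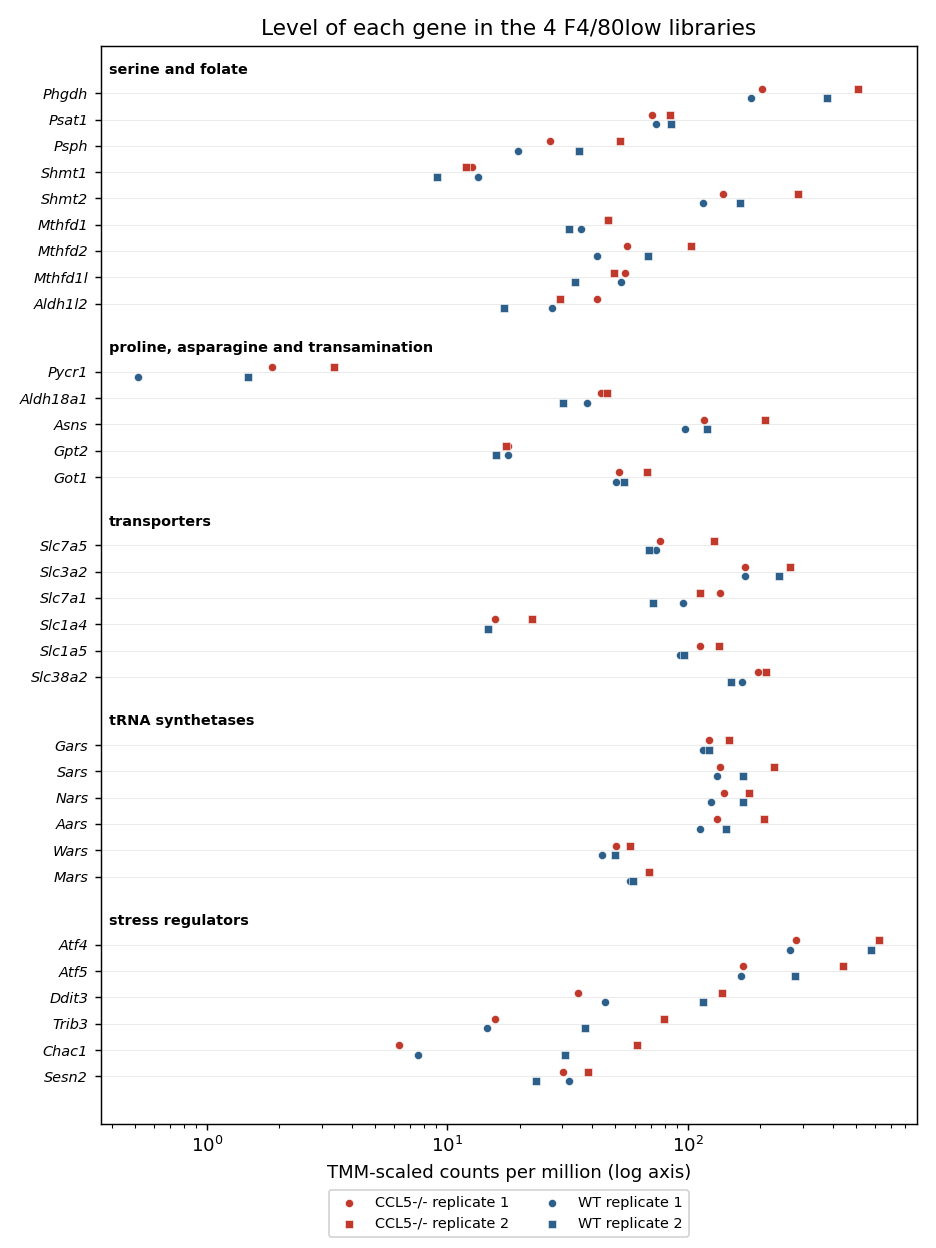
Level of each of the 32 genes in the 4 F4/80low libraries, in TMM-scaled CPM on a log axis, grouped by role; red marks CCL5-/- (upper points in each row), blue WT, circles replicate 1 and squares replicate 2. The squares of Chac1 lie at 61.4 and 30.7 CPM, far right of its circles at 6.28 and 7.56 CPM, while the 4 points of Mars lie between 57.4 and 68.9 CPM.

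Serine and folate genes showed 7 of 9 members higher in CCL5-/- in both pairs, with a median fitted log2 difference of 0.45. The largest of the 9 differences were those of Aldh1l2 (0.69) and Shmt2 (0.61). Aldh1l2, which oxidises formyl-tetrahydrofolate in mitochondria, was at 42.1 and 29.3 CPM in CCL5-/- replicates 1 and 2, against 27.1 and 17.2 CPM in WT replicates 1 and 2. Its groups did not overlap, by a narrow margin (log2 difference 0.69, SE 0.42, edgeR adjusted p = 1). Its exons share 1056 bases with D10Wsu102e on the opposite strand, and as strand use in counting is not given, reads of the 2 genes cannot be told apart there. Mthfd1, the trifunctional folate enzyme of the cytosol, was at 46.4 and 46.4 CPM in CCL5-/-, against 36.1 and 31.9 CPM in WT. The CCL5-/- libraries were both above the WT libraries (log2 difference 0.45, SE 0.34).

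Shmt2, the mitochondrial enzyme that splits serine into glycine and a one-carbon unit, was at 140 and 286 CPM in CCL5-/- replicates 1 and 2, against 115 and 164 CPM in WT replicates 1 and 2. Mthfd2, the mitochondrial dehydrogenase of the next step, was at 55.9 and 103 CPM, against 41.9 and 68.5 CPM. Both genes were higher in CCL5-/- within each pair, but the replicate numbers lay farther apart than the genotypes, so the groups overlapped. Without CCL5-/- replicate 2 their fitted log2 differences were 0.0042 and 0.0145, in a fit that the difference between the replicate numbers also enters. The pair differences were 0.29 and 0.80 for Shmt2 and 0.41 and 0.59 for Mthfd2 (log2, replicate 1 then replicate 2). Psph, the phosphatase that releases serine, was at 26.6 and 52.3 CPM in CCL5-/-, against 19.6 and 35.3 CPM in WT. Phgdh, which commits a glycolytic intermediate to serine, was at 203 and 509 CPM in CCL5-/-, against 183 and 378 CPM in WT. Here too the highest WT library exceeded the lowest CCL5-/- library.

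The remaining members of that group were closer to level. Psat1, the transaminase between PHGDH and PSPH, differed by -0.07 and -0.0064 in the pairs. Shmt1, the cytosolic counterpart of SHMT2, differed by -0.08 and 0.39, and Mthfd1l, which makes formate in mitochondria, by 0.06 and 0.54. Shmt1 shares 184 exonic bases with Smcr8 and Shmt2 shares 32 with Ndufa4l2, both on opposite strands.

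Of the genes of proline, asparagine and transamination, 4 of 5 were higher in CCL5-/- in both pairs, with a median fitted log2 difference of 0.39. Pycr1, of the last step of proline synthesis in mitochondria, rested on few reads. They numbered 16 and 92 in CCL5-/- replicates 1 and 2, against 3 and 45 in WT replicates 1 and 2. These are 1.86 and 3.38 CPM in CCL5-/-, against 0.515 and 1.48 CPM in WT. The groups did not overlap (log2 difference 1.30, SE 0.74, edgeR adjusted p = 1). In the replicate 1 pair the ratio was 3.61, with an exact conditional 95% interval of 1.03 to 19.3 that covers counting error only. Without CCL5-/- replicate 2 the log2 difference was 0.80 and without WT replicate 2 it was 2.34. The FPKM values that appear to come from the same 2 libraries do not show this difference, at 0.646 FPKM under the CCL5-/- label and 0.644 FPKM under the WT label. The cause of that mismatch was not tested.

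Aldh18a1, which makes the proline precursor from glutamate, was at 43.4 and 45.9 CPM in CCL5-/- replicates 1 and 2, against 38.1 and 30.1 CPM in WT replicates 1 and 2. Its groups did not overlap (log2 difference 0.39, SE 0.35). Asns was at 117 and 208 CPM in CCL5-/-, against 97.2 and 120 CPM in WT, and its groups overlapped by a small amount. The pair differences of Asns were 0.27 and 0.79. The transaminases lay closer together. Got1, the cytosolic aspartate transaminase, was at 51.6 and 67.4 CPM in CCL5-/-, against 50.3 and 54.4 CPM in WT, and Gpt2, the mitochondrial alanine transaminase, differed by -0.0065 and 0.14 in the pairs.

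Of the amino acid transporters, 5 of 6 had non-overlapping groups with CCL5-/- above WT (8.36% of all genes), and 6 of 6 were higher in CCL5-/- in both pairs (median fitted log2 difference 0.39). Slc7a1, the importer of arginine and lysine, was at 136 and 112 CPM in CCL5-/- replicates 1 and 2, against 95.7 and 71.6 CPM in WT replicates 1 and 2. Its pair differences were alike, 0.51 and 0.65 (log2 difference 0.57, SE 0.39). Slc7a5, the large neutral amino acid exchanger that takes up leucine, was at 76.7 and 129 CPM in CCL5-/-, against 73.9 and 69.0 CPM in WT. CCL5-/- replicate 2 stood apart for this gene, while the other 3 libraries lay close together. Its heavy chain Slc3a2 differed by 0.000185 and 0.15 in the pairs, less than its partner.

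Slc1a5, the glutamine carrier, was at 113 and 135 CPM in CCL5-/- replicates 1 and 2, against 92.8 and 96.4 CPM in WT replicates 1 and 2. Slc1a4, a carrier of serine and alanine, was at 15.8 and 22.5 CPM in CCL5-/-, against 14.8 and 14.7 CPM in WT. Both sets of groups were separate, Slc1a4 by a narrow margin. Slc38a2, a sodium-coupled neutral amino acid carrier, also had separate groups, with pair differences of 0.22 and 0.49.

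All 6 tRNA synthetases were higher in CCL5-/- in both pairs, by small amounts, with a median fitted log2 difference of 0.22. These enzymes load amino acids onto tRNA. Mars, for methionine, was at 68.9 and 68.7 CPM in CCL5-/- replicates 1 and 2, against 57.4 and 59.2 CPM in WT replicates 1 and 2. Wars, for tryptophan, which interferons also induce, was at 50.3 and 57.2 CPM in CCL5-/-, against 44.0 and 49.8 CPM in WT. Both had separate groups, though Wars by a narrow margin. Aars, for alanine, was at 132 and 208 CPM in CCL5-/-, against 112 and 144 CPM in WT, and it shares 1326 exonic bases with Exosc6 on the same strand. Sars, for serine, was at 136 and 229 CPM in CCL5-/-, against 132 and 169 CPM in WT. The groups of both overlapped. Gars, for glycine, and Nars, for asparagine, had pair differences of 0.08 and 0.27, and of 0.17 and 0.09.

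The stress regulators did not share a direction in both pairs. Of 6, 3 were higher in CCL5-/- in replicate 1 (median -0.03), and 6 in replicate 2 (median 0.69). Atf4 itself was at 281 and 627 CPM in CCL5-/- replicates 1 and 2, against 266 and 581 CPM in WT replicates 1 and 2 (mean 454 ± 244 and 424 ± 222 CPM, SD, n = 2 each). Its pair differences were 0.08 and 0.11, so its messenger was nearly level between the genotypes within each pair. Trib3, a pseudokinase that feeds back on ATF4, was at 15.8 and 79.7 CPM in CCL5-/-, against 14.6 and 37.3 CPM in WT. Chac1, which degrades glutathione, was at 6.28 and 61.4 CPM in CCL5-/-, against 7.56 and 30.7 CPM in WT. For both genes the CCL5-/- library was about level with or below WT in replicate 1 and above it in replicate 2. Their fitted log2 differences, 0.87 (SE 0.85) and 0.81 (SE 1.13), became -0.73 and -1.63 without CCL5-/- replicate 2.

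Ddit3, which encodes the stress factor CHOP, was at 34.8 and 139 CPM in CCL5-/- replicates 1 and 2, against 45.4 and 116 CPM in WT replicates 1 and 2. The sign of its difference turned between the pairs, -0.38 and 0.27. Atf5, a relative of ATF4, was at 169 and 442 CPM in CCL5-/-, against 166 and 278 CPM in WT, and shares 82 exonic bases with Nup62 and with Il4i1. Sesn2, a leucine-sensing restraint on mTORC1, was at 30.1 and 38.4 CPM in CCL5-/-, against 32.1 and 23.3 CPM in WT. CCL5-/- replicate 2 was the highest library for all 6 regulators.

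**Figure D2:**
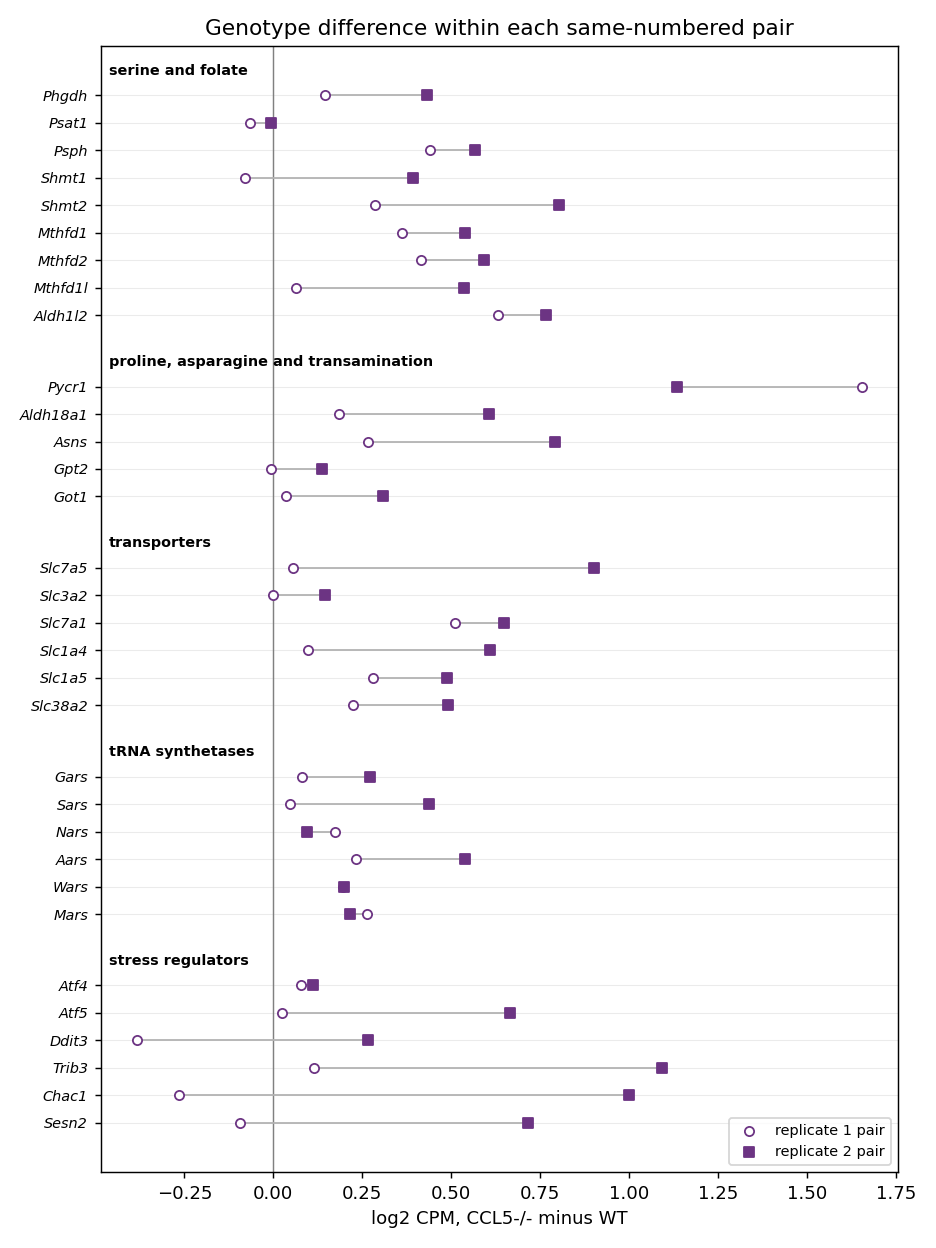
Difference in log2 CPM, CCL5-/- minus WT, of each gene within the replicate 1 pair (open circles) and the replicate 2 pair (filled squares), grouped by role, with a line joining the pairs. Squares lie right of 0 for 31 of 32 genes and circles for 26 of 32, and the widest gaps are those of Chac1, Trib3, Slc7a5 and Sesn2.

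The replicate numbers separated several members more than the genotypes did. In edgeR with terms for genotype and replicate number, 9 of the 32 (28.1%) passed as higher in replicate 2 (13.9% of all genes) and 0 as lower (18% of all genes). In either direction 9 of 32 passed, against 31.8% of all genes. That order depends on the test: DESeq2 called the same 9 members (28.1%) against 22.3% of all genes, and edgeR without a filter on low counts 12 members (37.5%) against 25.7%. A difference between the members and genes at large was not tested. The 9 were 5 of the 6 stress regulators and 4 of the 9 serine and folate genes. What the number stands for is not given. It goes with the Rn45s share, with the depth and perhaps with the gate, and these cannot be told apart.

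Chac1 differed most between the numbers, at 61.4 and 30.7 CPM in replicate 2 of CCL5-/- and WT, against 6.28 and 7.56 CPM in replicate 1 of CCL5-/- and WT (6.43-fold, log2 difference 2.69, SE 0.31, edgeR adjusted p = 6.4e-05). Trib3 was 3.63-fold higher in replicate 2 (adjusted p = 0.000135) and Ddit3 3.20-fold (adjusted p = 0.000141), by the same edgeR test. Atf4 rose by 1.141 and Atf5 by 1.07 on the log2 scale (edgeR adjusted p = 0.0028 and 0.0050). In each of these 5 genes both replicate 2 libraries lay above both replicate 1 libraries. As the 5 were named because they passed, this adds no support of its own. Sesn2 did not pass, with a log2 difference of -0.05.

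Among metabolic enzymes, Phgdh was 2.28-fold higher in replicate 2, Psph 1.89-fold, Mthfd2 1.74-fold and Shmt2 1.71-fold, and all 4 passed in edgeR (adjusted p = 0.0020, 0.0055, 0.0124 and 0.0217). Their partners in the same pathways did not. Psat1 had a log2 difference of 0.23, Mthfd1 of -0.09 and Mthfd1l of -0.39. Aldh1l2 lay in the other direction at -0.59, with an edgeR adjusted p of 0.05003 that just missed. No gene of proline, asparagine and transamination, no transporter and no synthetase passed. The synthetases all had positive differences, from 0.02 to 0.55.

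The gap between replicate numbers was larger in CCL5-/- than in WT for 29 of 32 members, against 48.4% of all genes. This is the same contrast, seen from the other side, as the larger genotype difference in the replicate 2 pair. Chac1 differed by 3.27 in CCL5-/- and 2.01 in WT (log2, replicate 2 minus replicate 1), Trib3 by 2.33 and 1.35, Slc7a5 by 0.75 and -0.10, and Atf4 by 1.16 and 1.12. With 1 library for each genotype and number, a difference between these differences was not tested.

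**Figure D3:**
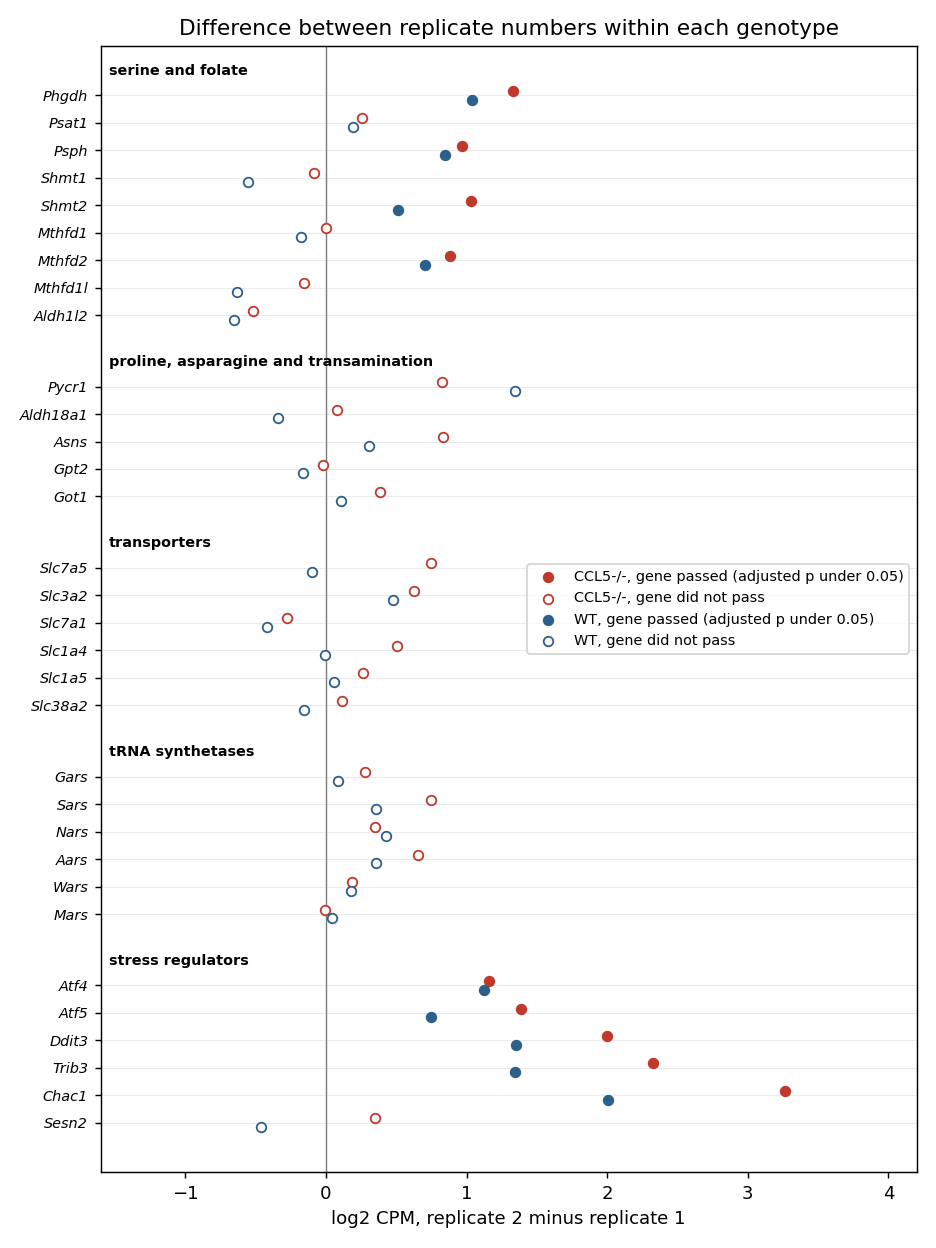
Difference in log2 CPM, replicate 2 minus replicate 1, of each gene in CCL5-/- (red, upper point) and WT (blue), filled where the gene passed the replicate term in edgeR at an adjusted p under 0.05. The 9 filled rows all lie right of 0, led by Chac1 at 3.27 in CCL5-/- and 2.01 in WT.

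Marker lists also differed between the replicate numbers, not all in the members' direction. Of 11 neutrophil markers 8 fell in replicate 2 and 0 rose, of 12 proliferation markers 3 rose and 1 fell, and of 12 macrophage markers 3 rose and 3 fell, by the same edgeR test. Of 7 monocyte markers 1 rose and 4 fell. Among all genes 13.9% rose and 18% fell. The part of these shifts in the members' values was not tested.

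Other genes of the pathway, from lists that hold none of the 32, gave the setting. Of 30 other tested genes of ATF4 and the integrated stress response, 9 were higher in CCL5-/- in both pairs (24.8% of all genes). In both pairs 6 were lower (3370 of all 12710 genes). The median fitted log2 difference was -0.06, and 0 passed for genotype. The smallest p-values for genotype were those of Slc7a3, an arginine importer, at -1.17 (SE 0.91), and Xpot, a tRNA exporter, at 0.47 (SE 0.35). Slc7a3 rested on few reads, with 4 and 10 in CCL5-/- replicates 1 and 2, against 8 and 18 in WT replicates 1 and 2. For replicate number, 7 rose (13.9% of all genes) and 4 fell (18% of all genes). Herpud1, of endoplasmic reticulum protein degradation, was at 165 and 149 CPM in replicate 2 of CCL5-/- and WT, against 57.7 and 60.1 CPM in replicate 1 of CCL5-/- and WT. Cebpg, a dimer partner of ATF4, was at 76.8 and 63.5 CPM in replicate 2, against 34.1 and 27.7 CPM in replicate 1. Gdf15, a secreted stress cytokine, rose by 1.92, and Sqstm1, Cebpb, Nupr1 and Eif2s1 also rose. Slc7a11, the cystine importer, was in contrast at 29.9 and 51.9 CPM in replicate 2, against 166 and 249 CPM in replicate 1 (log2 difference -2.37), and Slc38a1, Nars2 and Ero1l also fell. Genes of this list thus went in both directions along the replicate numbers, as did tested genes at large.

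The other cytosolic tRNA synthetases resembled the 6 members, with 14 of 14 fitted log2 differences above 0 between CCL5-/- and WT, 11 higher in both pairs and a median of 0.16, led by Vars (0.51) and Iars (0.45). Mitochondrial synthetases gave 11 of 17 above 0, 8 higher in both pairs and a median of 0.17. Over all tested genes 48.1% were above 0 and 24.8% were higher in both pairs, with a median of -0.01. Of 24 other one-carbon, glycine and purine or thymidylate genes, 20 were above 0 and 13 higher in both pairs, with a median of 0.17, and the folate carrier Slc19a1 had 0.53 and the purine enzyme Atic 0.33. Of 15 neighbours in proline and glutamine metabolism, 11 were above 0 and 5 higher in both pairs, with a median of 0.18, and Aldh4a1 had 0.54 and Oat 0.48. In each of these 4 lists 0 genes passed for genotype, with edgeR at an adjusted p under 0.05 and also at an unadjusted p under 0.05. Along the replicate numbers, the one-carbon genes Mthfd2l, Tyms and Mat2a rose and Mtr and Pfas fell, and Pycrl, a cytosolic relative of PYCR1, rose by 1.65. Bcat2 and Yars2 also rose, by 0.70 and 0.89, and Arg1, Iars2 and Lars2 fell (for Lars2 see Other observations).

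The second comparison took the F4/80hi gate, where each label has a single library and no replicate check was possible. Of 31 members with at least 1 FPKM in either library, 28 were lower in the library labelled CCL5-/- (52.3% of all genes), with a median of -0.20 on the log2(FPKM + 1) scale. On that scale none of the 31 reached 1.5-fold (with a pseudocount of 0.1, 1 did), where 6.72% of all genes were 1.5-fold or more higher and 5.36% were 1.5-fold or more lower. Aldh1l2 was at 6.60 FPKM under the CCL5-/- label and 10.3 FPKM under the WT label, and Slc7a1 at 18.2 and 27.2 FPKM. Ddit3 went the other way, at 60.3 FPKM under the CCL5-/- label and 42.1 FPKM under the WT label. In the FPKM table Ddit3 and Mars carry 1 joint locus, although the Ddit3 gene itself spans 127290829 to 127293753 of chromosome 10 (GENCODE M21, GRCm38). Under the sample titles each of these differences would change sign.

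Turned round in this way, the F4/80hi ratios repeated the replicate 1 pair gene by gene. With the library labelled WT on top, 31 of 32 log2 ratios lay within 0.3 of the CCL5-/- minus WT difference of replicate 1, with a median gap of 0.065. The exception was Pycr1. The F4/80hi values are therefore not counted as independent libraries of the genotype comparison.

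**Figure D4:**
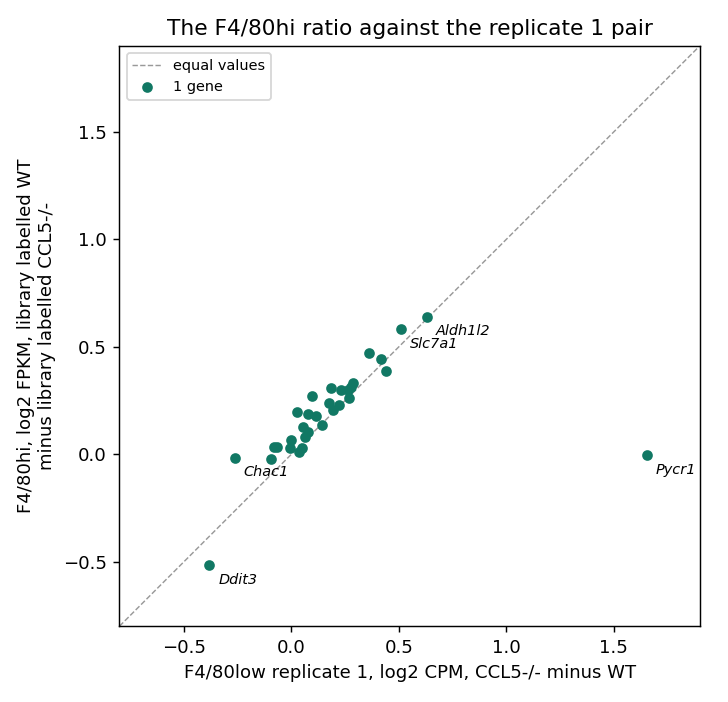
Each point is 1 of the 32 genes; the x axis gives the log2 CPM difference, CCL5-/- minus WT, in replicate 1 of F4/80low, and the y axis the log2 FPKM ratio of the F4/80hi library labelled WT over the one labelled CCL5-/-, with equal values on the dashed line. All genes but Pycr1, at 1.65 and -0.0054, lie within 0.3 of the line.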

How the data were processed

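For F4/80low the authors deposited raw read counts per gene, and a table with their log2 fold change, its p-value and its adjusted p-value. For F4/80hi the authors deposited FPKM with bounds. The submitters' processing notes name TopHat2 2.1.1 and Cufflinks 2.2.1, as well as STAR, HTSeq, cutadapt and DESeq2. Their roles and the build are not given in the sources used here. By position, the FPKM loci of all 32 members overlapped their GENCODE M21 (GRCm38) gene bodies. In the authors' comparison table, 4 columns of normalised values per library were not used.

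The test on counts was the two-sided quasi-likelihood test of edgeR 4.0.16 (R 4.3.3) with robust fitting, after filterByExpr and TMM scaling. Adjusted p-values are Benjamini-Hochberg over all 12710 tested genes, at 0.05. The code was also run on simulated counts with the same replicate difference in both genotypes. That run does not show how well the fit finds changes in these data. All 32 members passed the filter. The standard error was the log2 difference divided by the square root of F. Levels are TMM-scaled CPM. Pair differences use log2 CPM with a prior count of 2, and FPKM ratios a pseudocount of 1 unless given as plain FPKM ratios. DESeq2 1.42.0 and limma-voom (limma 3.58.1) were alternatives. Per-library values are given for up to 4 members of each role by smallest p, for Atf4 and for members that passed the replicate term, and other members by pair differences. Members and lists were chosen with earlier results of these data known. Some items of these lists and sequences are not reported here.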

Additional observations from a re-analysis of the deposited data

How the results depend on the processing

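The count of members called for genotype was 0 under every alternative run, and the count higher in both pairs ran from 25 to 30. It was 30 with plain CPM without Rn45s, a scaling chosen after seeing the data. With this scaling more of all genes were also higher in both pairs, 35.7% against 24.8% with TMM scaling. The all-gene median moved up to 0.12 (pair 1) and 0.055 (pair 2), where the members' medians were 0.25 and 0.62. The count of all genes called for genotype, 0 with edgeR, was 1 with DESeq2, and 0 to 4 when 1 library was left out. With the replicate number as a block it was 10 (edgeR), 23 (DESeq2) and 47 (limma-voom). Under the block 8 members had an unadjusted p under 0.05 with a higher value in CCL5-/- by edgeR (1.85% of all genes), 4 by DESeq2 (0.645%) and 10 by limma-voom (2.4%), 0 were lower at that p, and 0 passed (lowest adjusted p = 0.417 in edgeR and 0.239 in limma-voom). Same-numbered libraries deviated together (correlation 0.728 across genes), but with 2 pairs and no word in the labels this does not show that the numbers pair the samples. With the block Ddit3 turned to -0.042 (edgeR), -0.043 (DESeq2) and -0.056 (limma-voom), and without it to -0.067 (limma-voom); the cause was not tested. Leaving out 1 library, which also lets the difference between replicate numbers into the fit, moved the members' median between 0.059 and 0.54. It turned the sign of Chac1 (-1.63 to 2.171), Ddit3 (-1.22 to 0.94), Trib3 (-0.73 to 1.71), Atf4 (-0.59 to 0.77), Phgdh (-0.47 to 0.96), Atf5 (-0.40 to 1.04), Slc3a2 (-0.26 to 0.41), Psat1 (-0.17 to 0.13), Sars (-0.14 to 0.65), Shmt1 (-0.12 to 0.45), Nars (-0.059 to 0.36), Psph (-0.052 to 1.01), Got1 (-0.022 to 0.41), Gpt2 (-0.017 to 0.16) and Mthfd1l (-0.014 to 0.63). The 9 members called for replicate number (28.1%, against 31.8% of all genes) were also called by DESeq2 (22.3% of all genes) and without the genotype term (29.6%), and with 3 more (Asns, Sars and Slc3a2) without a filter on low counts (37.5%, against 25.7%). Leaving out a library there leaves no residual degrees of freedom and was not run. With a pseudocount of 0.1, 1 member passed 1.5-fold between the F4/80hi libraries.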

Other observations

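Lars2, the mitochondrial leucyl-tRNA synthetase, had the widest gap between replicate numbers in the synthetase lists, at 573 and 255 CPM in replicate 2 of CCL5-/- and WT, against 26112 and 59167 CPM in replicate 1 of CCL5-/- and WT (log2 difference -6.69, edgeR adjusted p = 0.000172). It was picked out after its values were seen. Its high values lay in the 2 libraries where Rn45s made up 50.03% (CCL5-/- replicate 1) and 58.44% (WT replicate 1) of reads. The part of ribosomal RNA reads in this gap was not tested, so the gap is not read as a change in synthetase expression.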
